A study of Caenorhabditis elegans with 6 samples.

Results

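In Caenorhabditis elegans, a nematode worm, 86 genes that carry only a sequence name were lower in animals with the tm1978 allele of hlh-30 than in the wild-type strain N2. A sequence name, such as F31F7.1, joins the genomic clone on which a gene was found to a number, and it is what a gene is called until a functional name is given. The 86 genes were chosen from these same arrays among 6718 sequence-named genes, of 17118 genes on the array that had a probe set of their own. A probe set, the group of short probes that reads a transcript, had to meet these conditions. Its annotation held 1 gene with such a name, its mean log2 value over the N2 arrays was at least 6, its 3 hlh-30(tm1978) values all lay below its 3 N2 values, and the mutant mean minus the N2 mean was −0.7 or lower. Where several probe sets of a gene met these conditions (99 did in all), the one with the highest N2 mean was kept. The difference between the genotypes was therefore used to choose the genes, and it is described below without a test.

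HLH-30 belongs to the basic helix-loop-helix proteins, a large class of transcription factors, and its relative in mammals is TFEB. Factors of the TFEB family bind E-box elements and activate genes of lysosomes, autophagy and lipid breakdown, and in worms HLH-30 is known for its part in the response to fasting and in longevity. Many worm genes have not been studied one at a time and are still known by their sequence names. No role is given here for any of the 86 genes, because the annotation used pairs them with no product.

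The study held 6 arrays, 3 of N2 and 3 of hlh-30(tm1978), each from a separate biological replicate of whole animals kept at 20 °C on plates. Within a replicate, RNA from embryos was combined with RNA from larvae of the L1 and L2 stages, so a value averages over these stages and over all tissues, and fewer cells of a type cannot be told apart from less RNA per cell. The mutant is a single allele in a single strain, and whether it was outcrossed is not stated in the labels. Values are the deposited log2 expression values, which ran from a floor of 2.04 to 16.95. With so few arrays, every difference has limited precision.

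The hlh-30 transcript checked the labels first. At its brightest probe set N2 had values of 12.05, 12.07 and 12.34, while hlh-30(tm1978) had 10.52, 10.65 and 9.66. The genotypes did not overlap there or at its other probe sets. The third array of each genotype stood apart from the other arrays of its group. Its mean absolute log2 distance to them was 0.326 for N2 3 and 0.432 for hlh-30 3, against 0.236 to 0.286 for the remaining arrays. Early embryo and maternal transcripts (19 of 27 listed genes tested) averaged 8.54 on hlh-30 3 and 7.59 and 7.64 on the other mutants, and 7.62 on N2 3 against 8.12 and 7.90. Of 7 lists of stage and tissue markers, body wall muscle was the one whose mean level did not overlap between genotypes. It was 13.07 to 13.41 in N2 and 12.63 to 12.90 in the mutant. All 22 of its genes were bright enough to test, and 19 were below 0 in difference, against 52.1% of all genes tested. In 11 of the 22 genes all 3 mutant arrays lay below all 3 N2 arrays, against 9.87% of all genes tested. Lower values were not confined to muscle. Differences were below 0 in 18 of 19 intestine genes and 16 of 20 neuron genes, with no overlap in 5 of each list. The count below 0 was 4 of 21 in hypodermis and cuticle and 8 of 19 in early embryo genes. It was 3 of 9 in zygotic embryo and 0 of 7 in adult genes. The part of muscle, other tissue or embryo content in the differences below was not tested.

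Across the 86 genes the median difference, mutant minus N2, was −1.0 on the log2 scale, a level 2.00-fold lower, and single genes ran from −3.18 to −0.70. The median over the 9113 genes tested was −0.010, and 2.57% of those genes were at −0.7 or lower. Genes with a given name that met the same thresholds, 102 in all, had a median of −0.94 and a lowest difference of −7.23. Among the 86, the fall was −1.5 or lower in 12 genes, between −1.5 and −1 in 32 and smaller in 42. The members spanned a wide range of brightness, with N2 means from 6.06 to 12.77 and a median of 9.45, against a median of 9.10 in the 2392 sequence-named genes with an N2 mean of at least 6 that did not meet the rule. The gap between the lowest N2 array and the highest mutant array was 0.51 at the median, over 1 in 11 genes and under 0.25 in 21. The pooled SD within a genotype was 0.30 at the median.

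**Figure D1:**
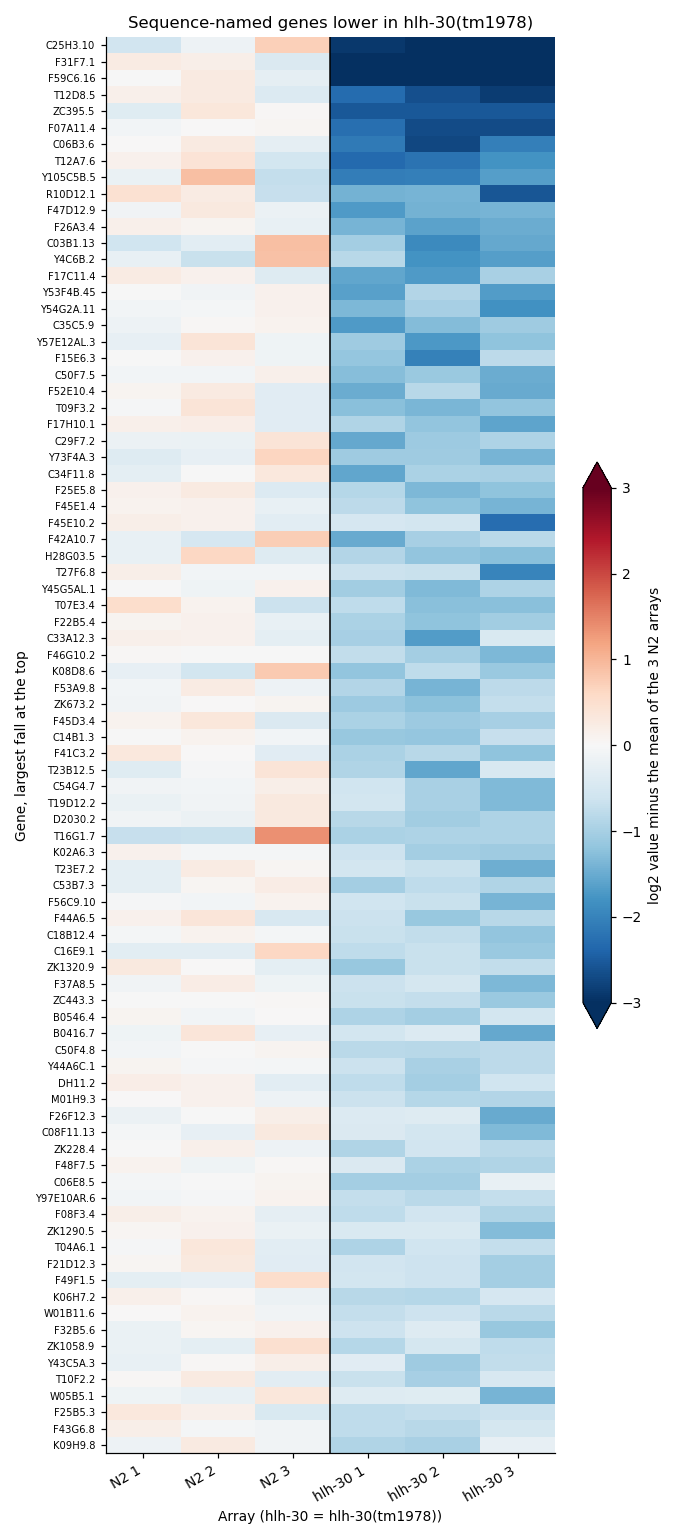
Each row is 1 of the 86 genes, ordered from the largest fall at the top to the smallest at the bottom, and each column is 1 array. Colour shows the deposited log2 value minus the mean of the 3 N2 arrays of that gene. The right-hand columns, the mutant arrays, are blue in every row, as the choice of the genes requires, and hlh-30 3 is the darkest of them in genes such as F45E10.2 and W05B5.1.

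The 3 largest falls were of about 3 log2 units. C25H3.10 (Entrez gene 173965, chromosome II) read 7.90, 8.33 and 9.18 in N2 and 5.57, 5.15 and 5.16 in the mutant. N2 averaged 8.47 ± 0.65 (SD, n = 3) against 5.29 ± 0.24 (SD, n = 3) in the mutant, where the level was 9.07-fold lower. N2 3 was the highest array, and without both arrays numbered 3 the difference was −2.76 in place of −3.18. F31F7.1 (Entrez gene 185179, chromosome V) was brighter, at 11.18, 11.11 and 10.49 in N2 and 7.92, 7.75 and 7.75 in the mutant. More than 2.5 log2 units separated its lowest N2 array from its highest mutant array, and the mutant level stayed far above the floor. F59C6.16 (Entrez gene 7040139, chromosome I), a gene with a span of only 171 bases, read 6.84, 7.11 and 6.57 in N2 and 3.84, 3.84 and 3.81 in the mutant. It was the member whose mutant values lay under a log2 of 4, the level used to call a probe set measurable, so its fall is given as at least 7.17-fold, with those values set to 4.

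Falls of 4-fold to about 6-fold were read in 5 further genes. T12D8.5 (Entrez gene 176797, chromosome III) had N2 values of 10.06, 10.16 and 9.49 and mutant values of 7.60, 7.27 and 7.06. ZC395.5 (Entrez gene 191152, chromosome III) had N2 values of 8.33, 9.02 and 8.71, and 6.14 on every mutant array. F07A11.4 (Entrez gene 174780, chromosome II) read 8.31, 8.40 and 8.45 in N2, the tightest wild-type group of these 5, and 6.13, 5.70 and 5.70 in the mutant. In all 3 the groups lay more than 1.8 log2 units apart. C06B3.6 (Entrez gene 182293, chromosome V) was the only one of the 5 with an N2 mean above 12, with arrays at 12.65, 12.90 and 12.37. Its mutant arrays read 10.52, 9.90 and 10.60, a difference of −2.30 with the groups 1.77 apart. T12A7.6 (Entrez gene 178109, chromosome IV) read 8.0, 8.29 and 7.33 in N2 and 5.55, 5.65 and 6.07 in the mutant. For T12A7.6 the arrays numbered 3 were the closest to the opposite genotype, and without both of them the difference grew from −2.12 to −2.54.

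Y105C5B.5 and R10D12.1, the next genes by size of fall, had larger pooled SDs within a genotype than the 8 genes before them. These were 0.60 and 0.65, against 0.49 for C25H3.10, the highest of the 8. Y105C5B.5 (chromosome IV) read 6.54, 7.62 and 6.02 in N2 and 4.65, 4.67 and 5.07 in the mutant. R10D12.1 (chromosome V) read 10.03, 9.83 and 8.88 in N2 and 8.17, 8.18 and 7.0 in the mutant, so that both arrays numbered 3 were low. The SD of the N2 arrays was 0.82 for the former and 0.61 for the latter, and the gap between genotypes was still 0.96 and 0.71. F47D12.9 (chromosome III) and F26A3.4 (chromosome I) both differed by −1.5, with smaller pooled SDs of 0.22 and 0.16. F26A3.4 read 11.85, 11.77 and 11.47 in N2 and 10.29, 10.09 and 10.20 in the mutant, and F47D12.9 read 10.16, 10.56 and 10.09 against 8.56, 8.86 and 8.88.

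**Figure D2:**
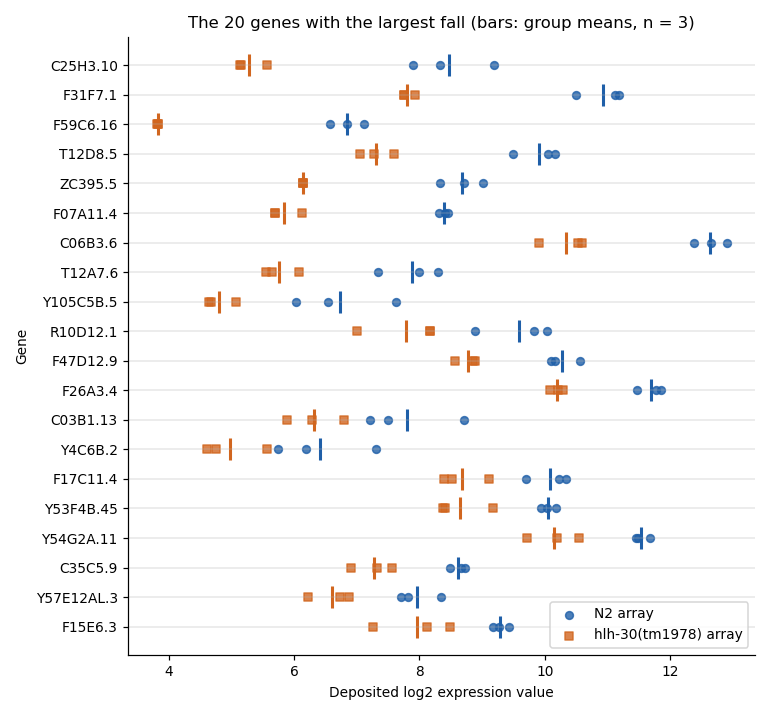
Deposited log2 values (horizontal axis) of the 20 genes with the largest fall, 1 gene a row, with circles for the 3 N2 arrays, squares for the 3 hlh-30(tm1978) arrays and bars for the group means. The groups are widest apart in F59C6.16, F31F7.1 and C25H3.10, and the N2 circles of C03B1.13 and Y4C6B.2 spread by more than 1.4 log2 units with N2 3 on the right.

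The remaining 8 of the 20 largest falls lay between −1.49 and −1.33. C03B1.13 (chromosome X) read 7.21, 7.50 and 8.71 in N2 and 6.79, 5.90 and 6.28 in the mutant, and Y4C6B.2 (chromosome IV) read 6.19, 5.74 and 7.30 against 5.57, 4.61 and 4.76. In both, N2 3 was more than 1 log2 unit above the other N2 arrays, and without both arrays numbered 3 the differences were −1.01 and −0.87. F17C11.4 (chromosome V) went the other way, from −1.41 to −1.82 without them. F15E6.3 (chromosome IV) was uniform in N2, at 9.27, 9.43 and 9.17, and spread in the mutant, at 8.13, 7.26 and 8.49. Y54G2A.11 (chromosome IV) and C35C5.9 (chromosome X) had an SD of 0.12 and 0.13 in N2, and their differences were −1.39 and −1.35. Y53F4B.45, annotated as a noncoding RNA, and Y57E12AL.3, annotated as a pseudogene, complete the 20. The noncoding RNA read 10.03, 9.94 and 10.18 in N2 and 8.41, 9.17 and 8.38 in the mutant.

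Of the 5 members with the highest N2 means, only C06B3.6 was among the 20 largest falls. C53B7.3 (chromosome X), with the highest N2 mean of the 86, read 12.48, 12.82 and 12.99 in N2 and 11.76, 12.01 and 11.87 in the mutant. W01B11.6 (chromosome I) read 12.35, 12.45 and 12.24 against 11.63, 11.72 and 11.54. F22B5.4 (chromosome II) read 12.20, 12.24 and 11.89 against 11.17, 10.91 and 11.07, and M01H9.3 (chromosome IV) read 12.03, 12.15 and 11.87 against 11.37, 11.17 and 11.13. The differences of these 4 ran from −1.06 to −0.72. The steadiest small fall was that of C50F4.8 (chromosome V), with 10.67, 10.75 and 10.83 in N2 and 9.95, 9.91 and 9.96 in the mutant.

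The threshold of −0.7 cuts through a continuous run of values. Just inside it were F25B5.3 at −0.71, F43G6.8 at −0.71 and K09H9.8 at −0.70, the last with 0.084 between its lowest N2 and its highest mutant array. Just outside were T20B3.1, R31.2 and R11F4.1, each at −0.69.

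**Figure D3:**
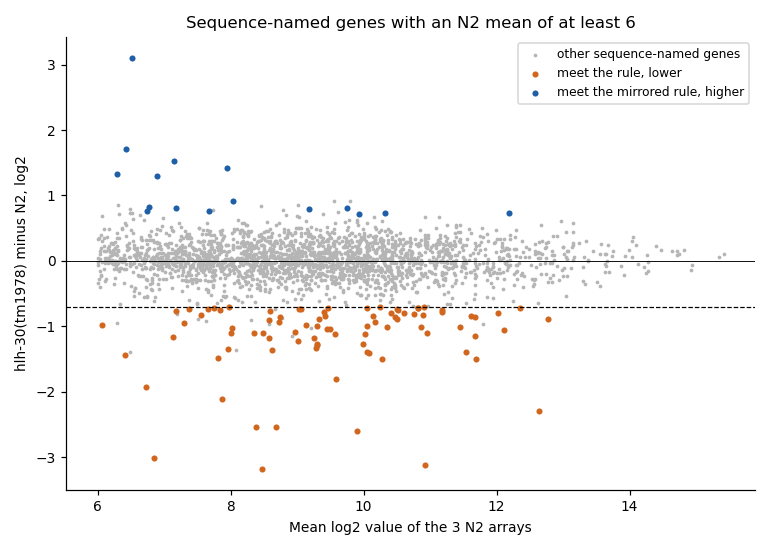
Mean log2 value of the 3 N2 arrays (horizontal axis) against the mutant minus N2 difference in log2 (vertical axis) for the sequence-named genes with an N2 mean of at least 6, with the 86 lower genes in orange, those that meet the mirrored rule for higher genes in blue and all others in grey. The dashed line marks −0.7, and grey points under it had overlapping arrays. Orange points occur up to an N2 mean of 12.77, and the brighter genes to the right of that hold none.

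Of the sequence-named genes with an N2 mean of at least 6, 3.47% met the rule (86 of 2478). The same thresholds were met by 1.84% of the genes with a given name (102 of 5552). With the directions turned, 17 sequence-named genes (0.685%) and 18 named genes (0.324%) were higher in the mutant. Sequence-named genes at this level were also dimmer than named ones, with median N2 means of 9.13 and 9.75, and noisier, with a median pooled SD of 0.23 and 0.21, and the part of either in these shares was not tested. Over all 12060 probe sets tested with limma, 0.116% were lower and 0.0166% higher in the mutant at a Benjamini-Hochberg adjusted p under 0.05, and 10.7% had all 3 mutant arrays below all 3 N2 arrays. All 86 members passed the filter for testing, and 6 were among the limma calls: F31F7.1, F59C6.16, ZC395.5, F07A11.4, F26A3.4 and C50F4.8. Nothing is read from that count, since the rule used the same contrast, and limma called no probe set lower without N2 1, without hlh-30 2 or without hlh-30 3. C25H3.10, with the largest fall, was not among the calls.

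The arrays numbered 3 shaped the size of the fall in part of the genes. Without both of them the median over the 86 genes was −0.98, and 67 genes were still at −0.7 or lower. Taken alone, the third mutant array lay below the third N2 array in each of the 86, as the rule demands, with a median difference of −1.16. With any 1 of the 6 arrays left out, 68 to 81 genes stayed at −0.7 or lower, and 52 genes did so whichever array was removed.

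Members did not follow 1 pattern on these arrays. In 14 genes N2 3 was the highest N2 array and hlh-30 3 the lowest mutant. The mean levels of the muscle, intestine and neuron markers moved in this direction on these arrays. The median difference of the 14 genes was −0.87 with all arrays and −0.59 without both. In 15 genes the order was reversed, as for the embryo markers, and the median went from −1.04 to −1.48. The former pattern was seen in 18.2% of all genes tested and in 16.3% of the members, and the latter in 26.3% and 17.4%. The rule asks the genotypes not to overlap, and the latter pattern narrows that gap, so these shares are not comparable. The direction in which each median moved also follows from how its pattern is defined. C06B3.6, T12A7.6, Y105C5B.5 and F47D12.9 are in the second group, and none of the 12 largest falls was in the first. In 8 of those 12 the fall was larger without both arrays numbered 3.

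Single arrays decided some of the smaller falls. T16G1.7 read 8.04, 8.05 and 10.10 in N2 and 7.78, 7.80 and 7.80 in the mutant, and without N2 3 its difference was −0.25 in place of −0.94. F45E10.2 read 9.51, 9.47 and 7.72 in the mutant against 10.20, 10.16 and 9.70 in N2, and without hlh-30 3 it was −0.53 in place of −1.12. A single array thus made up much of the difference of T16G1.7 and F45E10.2. Leaving out N2 3 also moved K08D8.6 (−0.63), C16E9.1 (−0.54), F49F1.5 (−0.47) and ZK1058.9 (−0.47) by more than 1.5 times. Leaving out hlh-30 3 did so for T27F6.8 (−0.66), B0416.7 (−0.47), F26F12.3 (−0.41), C08F11.13 (−0.50), ZK1290.5 (−0.46) and W05B5.1 (−0.38). These 12 genes were the only ones that 1 array moved so far.

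**Figure D4:**
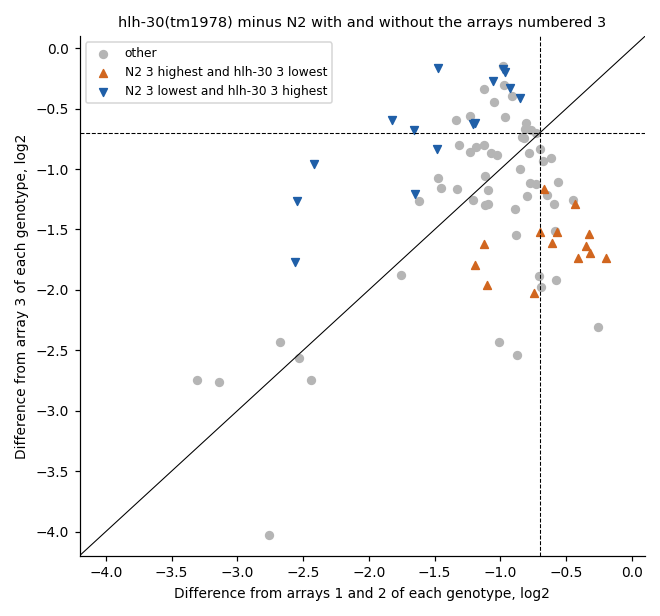
Mutant minus N2 difference of the 86 genes in log2, from arrays 1 and 2 of each genotype (horizontal axis) and from array 3 of each genotype (vertical axis). The solid line marks equal differences and the dashed lines −0.7. Orange triangles (N2 3 highest, hlh-30 3 lowest) lie below the solid line and blue triangles (the reverse) above it, and the 6 genes at or under −2.5 over all arrays are strongly lower on both axes.

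Other probe sets of the same genes were read for 24 members, 33 probe sets in all. Of these, 13 met the rule as well, 27 had a difference below 0 and none was above 0, and the median was −0.67. F47D12.9 differed by −2.45 at its second probe set, more than at the one kept. F15E6.3 also fell further at its second probe set, where 2 mutant arrays read 3.73 and 2.94, under the log2 level of 4, and the difference was −2.16 with those values set to 4. C53B7.3 (−0.91), M01H9.3 (−0.86), C18B12.4 (−0.82) and ZC443.3 (−1.06) fell at their second probe set by about as much as at the first. Smaller falls were read at the dimmer second probe sets of W05B5.1 (−0.37, with overlapping arrays) and F32B5.6 (−0.36, with no overlap). That of F37A8.5 lay near the floor in both genotypes and differed by −0.02. The pseudogene H28G03.5 was lower at each of its 4 probe sets, all of a kind that can match several related transcripts. Such x-type probe sets stood for 3 members, H28G03.5, Y57E12AL.3 and F52E10.4, so which copy they read is uncertain. A further 26 members were read by s-type probe sets, which can also match more than 1 transcript, though each was annotated with 1 gene. C25H3.10, F07A11.4, T12A7.6, R10D12.1 and F26A3.4 were among them.

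For 6 genes a brighter probe set did not meet the rule. T23E7.2 differed by −0.32 at its brightest probe set, where the genotypes overlapped, and by −0.89 at the one kept. K08D8.6 differed by −0.34 at its brightest and −1.03 at the one kept. F26F12.3 read −0.55 and C08F11.13 −0.41 at a brighter set with overlap, while F56C9.10 (−0.70) and Y97E10AR.6 (−0.67) missed the threshold narrowly with no overlap. Taking the brightest probe set first would leave 80 genes. W01B11.6, C50F7.5, F26F12.3 and Y53F4B.45 each had at least 1 more probe set at the floor on all 6 arrays.

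The genes lay on all 6 chromosomes. In the RefSeq annotation of assembly WBcel235, where all 86 were found under the same symbol, 83 were protein-coding genes, 2 pseudogenes and 1 a noncoding RNA. Chromosomes V and X held 17 each, II 15, III and IV 14 each and I 9. The shares ran from 10.5% on chromosome I, against 14.9% of all sequence-named genes with an N2 mean of at least 6, to 19.8% on X, against 16.3%. Median falls by chromosome lay between −0.86 on III and −1.11 on IV. Gene spans ran from 171 to 12059 bases, with a median of 2046 against 2121 in those sequence-named genes. No 2 of the 86 shared a clone name. Along the chromosomes, in the order of protein-coding genes, pseudogenes and long noncoding RNAs, 85 members were placed and no 2 of these were next to each other. The noncoding RNA Y53F4B.45 was not placed. On chromosome IV, which carries hlh-30, 28 genes lay between hlh-30 and its nearest member, F49F1.5.

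Genes next to the members had differences centred near 0. Of 92 neighbouring genes that were tested, 47 (51.1%) had a difference below 0, against 52.1% of all genes tested, and their median was −0.0072. The arrays did not overlap, with the mutant lower, for 9 of them (9.78%), against a background of 9.87% of genes, and 0 were called by limma at an adjusted p under 0.05 (at an unadjusted p under 0.05, 6 or 6.52% were lower and 3 or 3.26% higher, against 6.94% and 1.66% of all genes tested). A difference of −0.7 or lower was read in 3 neighbours, 3.26% against the 2.57% of all genes. Without both arrays numbered 3 the shares below 0 were 56.5% of the neighbours and 55.7% of all genes. The 3 neighbours at −0.7 or lower were ddo-2, C06B3.7 and zyg-11. ddo-2, beside F25E5.8 on chromosome V and named for a D-aspartate oxidase, read 11.69, 11.93 and 11.41 in N2 and 10.58, 10.32 and 10.26 in the mutant, a difference of −1.29 (limma adjusted p 0.0903). F25E5.8 itself read 11.81, 11.95 and 11.26 against 10.82, 10.31 and 10.46. C06B3.7, beside C06B3.6, differed by −0.90 with overlapping arrays (limma adjusted p 0.755), reading 8.79, 9.29 and 6.82 in N2 and 7.76, 7.01 and 7.44 in the mutant. zyg-11, beside DH11.2, differed by −0.73 (limma adjusted p 0.122).

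The spans of 18 of the 85 members overlapped that of a neighbour, and the strand of either gene was not used here. T12D8.5, with a difference of −2.59, overlaps taf-9, a gene of the general transcription machinery. The mean of taf-9 was 0.43 higher in the mutant, with overlapping arrays, and that rested on hlh-30 3. taf-9 read 8.77, 8.68 and 8.31 in N2 and 8.43, 8.43 and 10.19 in the mutant. F47D12.9 overlaps F47D12.3, whose 3 mutant arrays were all above N2, by 0.46 on average (limma adjusted p 0.629). C34F11.8 overlaps ampd-1, an AMP deaminase gene, which differed by −0.34 (limma adjusted p 0.34) where C34F11.8 differed by −1.16.

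**Figure D5:**
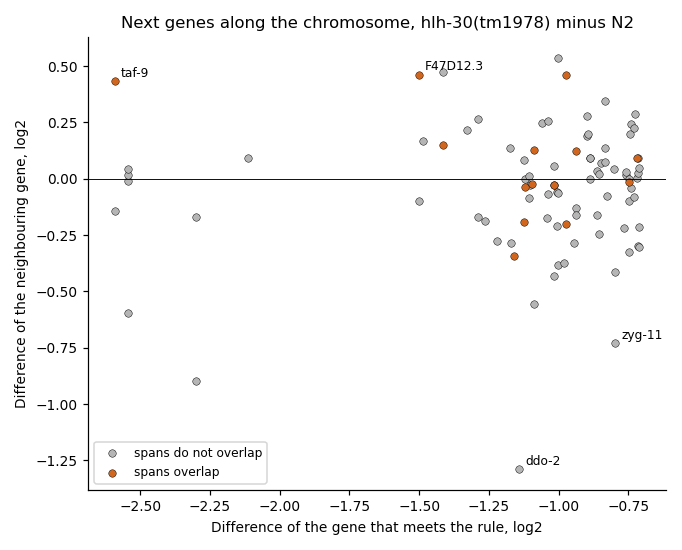
Mutant minus N2 difference in log2 of each gene that meets the rule (horizontal axis) and of the genes directly beside it (vertical axis). Only neighbours that were tested are drawn, with those of overlapping span in orange. The neighbours scatter around 0 where they were tested, ddo-2 at −1.29 is the lowest, and 6 of the 12 largest falls, among them the 3 of about 3 log2 units, had no tested neighbour.

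Genes of the processes HLH-30 is known for had smaller differences. Of 26 autophagy genes tested, 22 had a difference below 0, against 52.1% of all genes tested, and the median was −0.27. Of these, 1, epg-9, which encodes a partner of the initiating kinase complex, fell at a limma adjusted p under 0.05 (−1.0, adjusted p 0.0352), against 0.116% of probe sets. epg-9 read 9.31, 9.51 and 9.31 in N2 and 8.35, 8.39 and 8.38 in the mutant. Its difference lay between −1.05 and −0.93 in every setting run, but the call was lost whichever single array was left out, with limma adjusted p from 0.0895 without hlh-30 3 to 0.211 without hlh-30 2. At an unadjusted p under 0.05, 8 of the 26 (30.8%) were lower, against 6.94% of all genes tested. Of 47 lysosomal genes 35 were below 0, with a median of −0.15, and 0 were called by limma in either direction (at an unadjusted p under 0.05, 10 or 21.3% were lower and 0 higher). All 3 mutant arrays lay below all 3 N2 arrays in 10 autophagy and 18 lysosomal genes, against 9.87% of all genes tested. In 0 genes of either list did they all lie above. The mean level of each list was lower on every mutant array than on any N2 array. The body wall muscle markers, a tissue list, were further down, with a median of −0.41. Of these 22 genes, 11 (50%) were lower at an unadjusted p under 0.05, and limma called 1, tnt-2 (−1.01, adjusted p 0.0352). atg-18, a lipid-binding autophagy protein, read 11.83, 11.80 and 11.91 in N2 and 10.86, 10.78 and 10.47 in the mutant, a difference of −1.14 (limma adjusted p 0.0676). cpr-4, a cathepsin B-like protease, read 12.90, 12.69 and 13.11 against 11.52, 11.93 and 11.90 (−1.12, limma adjusted p 0.122). The 86 genes were chosen for their fall and these lists were not, so their medians stand side by side only.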

How the data were processed

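The values the authors deposited are log2 expression values, 1 for each probe set on each array. GCRMA and limma are named in the submitters' processing notes, with no version or setting. Arrays were grouped by their labelled genotype. The platform annotation supplied gene names: 20766 probe sets carried 1 gene, 887 several and 895 none, and the 77 controls were removed. Testing was limited to the 12060 probe sets with a log2 value of 4 or more on 3 or more arrays, with limma 3.58.1 in R 4.3.3 (lmFit, eBayes, no covariate) and Benjamini-Hochberg adjustment over all of them, two-sided. The fit was tested on simulated data. A gene outside the 86 was read by its brightest tested probe set. Neighbours are the next protein-coding, pseudogene or lncRNA gene in RefSeq's WBcel235 table, which also gave chromosome, biotype and span. The labels do not say whether a replicate number marks a shared culture or day, so the arrays were not paired. The deviations of same-numbered arrays correlated at −0.408, −0.423 and −0.519, and 3 arrays per genotype are too few to decide the question.

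The genes, lists and tests were chosen with earlier results of these data known. The text names the 20 largest falls, the 5 highest N2 means, the genes at the threshold, and, chosen after their values were seen, genes moved by 1 array, with several probe sets or with overlapping neighbours. p-values measure the spread between these arrays, 3 per genotype. Alternatives were other scalings, thresholds and filters, a replicate block, and arrays left out. Sequences were not used here.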

Additional observations from a re-analysis of the deposited data

How the results depend on the processing

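The 86 genes by the rule became 69 after quantile normalization and 68 after median centring, all of them among the 86, and 80 with the brightest probe set taken first, an alternative chosen after seeing the data. With −0.5 in place of −0.7 there were 128, with −1 there were 45, with overlap allowed 100, and 17 under the mirrored rule. With 1 array left out 80 to 100 genes met the rule, of which 69 to 81 were among the 86. Without both arrays numbered 3 there were 204, of which 66 were among the 86, and that rule asks 2 arrays against 2 not to overlap, which is easier to meet. The median difference of the 86 lay between −1.02 and −0.94 under every alternative run. It was −1.0 with the replicate number as a block, which cannot change a difference, since each number holds 1 array per genotype. The 24 genes with the largest falls or highest N2 means kept their direction in all settings. The rule placed every mutant array below every N2 array, so leaving arrays out or setting low values to 4 could not reverse it. In 6 of 288 cases 1 of the 24 genes moved by more than its SD. Among these was the mean over all probe sets for W01B11.6 (−0.36) and Y53F4B.45 (−0.70), which includes probe sets at the floor. Probe sets called lower by limma numbered 14. They were 4 without the filter, 9 with a trended robust variance, 605 with array quality weights, 200 without both arrays numbered 3 and 0 to 3 with 1 array left out (661 to 987 at an unadjusted p under 0.05). With the replicate block limma called 0 lower and 0 higher (651 and 167 at an unadjusted p under 0.05). For epg-9, followed across settings after seeing the data, the adjusted p was 0.095 without the filter, 0.0512 with a trended robust variance, 0.443 with the replicate block and 0.0569 without both arrays numbered 3. The cause of these changes was not tested. Without scanner intensities no signal over background could be given.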

Other observations

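Identical deposited values on 2 arrays of a genotype occurred in 8 of the 86 genes: F31F7.1, F59C6.16, ZC395.5 and F07A11.4 in the mutant, and C50F7.5, K02A6.3, C16E9.1 and ZC443.3 in N2. The first 4 are among the 6 largest falls. In ZC395.5 the 3 mutant arrays differed by less than 0.001, with an SD of 0.00047, while its N2 arrays had an SD of 0.35. Over all 12060 probe sets tested, 42.0% had identical values on at least 2 of the 6 arrays, but the rule bars identity between genotypes, so the shares are not comparable.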
